A study of Mus musculus with 18 samples.

Results

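The genes of 10 receptors that position B cells in lymphoid tissue were followed here, namely the chemokine receptor genes Cxcr4, Cxcr5, Ccr1, Ccr6, Ccr7 and Ccr9, the oxysterol receptor gene Gpr183 and the sphingosine-1-phosphate receptor genes S1pr1, S1pr2 and S1pr4. They were chosen by name, with earlier results of these data known. By their Ensembl identifiers, all 10 were found among the 55487 genes of the count tables. All 10 also held enough counts to be tested, as did 15318 genes in all.

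The cells were WEHI-231, a mouse line of an immature B cell lymphoma with an IgM B cell receptor (BCR). Parental cells were compared with the clones #A-59 and #B-20, in which Tfeb, the gene of a transcription factor of lysosome and autophagy genes, had been mutated with Cas9. Each clone was grown from a single cell, so that a difference between 1 clone and parental cells cannot be told apart from a difference that this one cell carried. Each genotype was left untreated (0 h) or BCR-stimulated with 10 µg/ml F(ab')2 fragments of anti-IgM for 6 or 18 h, and each of these 9 groups held 2 libraries, 18 in all.

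Chemokine receptors and the receptors for oxysterols and sphingosine-1-phosphate are G protein-coupled receptors that steer a cell along gradients of their ligands. CXCR4 holds B cells near CXCL12-rich stroma in the bone marrow and in the dark zone of germinal centers, CXCR5 brings them to the CXCL13 of follicles, and CCR7 together with GPR183, also named EBI2, draws activated B cells to the outer follicle and its border with the T cell zone. S1PR1 serves exit from tissues into blood and lymph, whereas S1PR2 couples to Gα13 and confines germinal center B cells.

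The 18 libraries held 11223588 to 29655262 counts each (median 19846544). Levels are given as counts per Mio after TMM scaling (CPM), and 3 counts, the limit that a count of 0 allows, correspond to 0.102 to 0.268 CPM depending on the library. Of the B cell markers, Ighm lay between 2430 and 4730 CPM, Pax5 between 1020 and 2380 CPM and Cd79a between 794 and 1940 CPM over all libraries, while the 5 T cell markers summed to at most 0.985 CPM and the 3 NK cell markers to at most 0.523 CPM. The counts of the edited gene, Tfeb, lay between 79.2 and 99.9 CPM in parental libraries, 25.5 and 40.5 CPM in #A-59 and 34.2 and 54.1 CPM in #B-20, so that both clones were below parental cells at each time. These counts cover the whole gene and do not report on the edited exon. Since RNA of a whole culture was sequenced, fewer cells with a transcript and less of it per cell cannot be told apart.

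Between genes, levels were compared per kb of exon in untreated parental cells. On this scale Cxcr5 stood highest with 113 ± 9.67 CPM per kb (SD, n = 2), followed by Cxcr4 with 31.5 ± 4.99, S1pr1 with 5.43 ± 0.958, S1pr4 with 4.02 ± 0.565 and S1pr2 with 2.14 ± 0.107 CPM per kb. The libraries of these 5 genes did not overlap with those of the next gene in the order. Ccr6 (1.04 ± 0.422), Gpr183 (0.822 ± 0.112), Ccr7 (0.713 ± 0.0815) and Ccr1 (0.653 ± 0.284) followed, each overlapping with its neighbour, and Ccr9 was lowest with 0.0535 ± 0.0259 CPM per kb. Hence the receptor for the follicle was the most abundant of the transcripts, and the receptor for the gut-associated chemokine CCL25 the least.

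**Figure D1:**
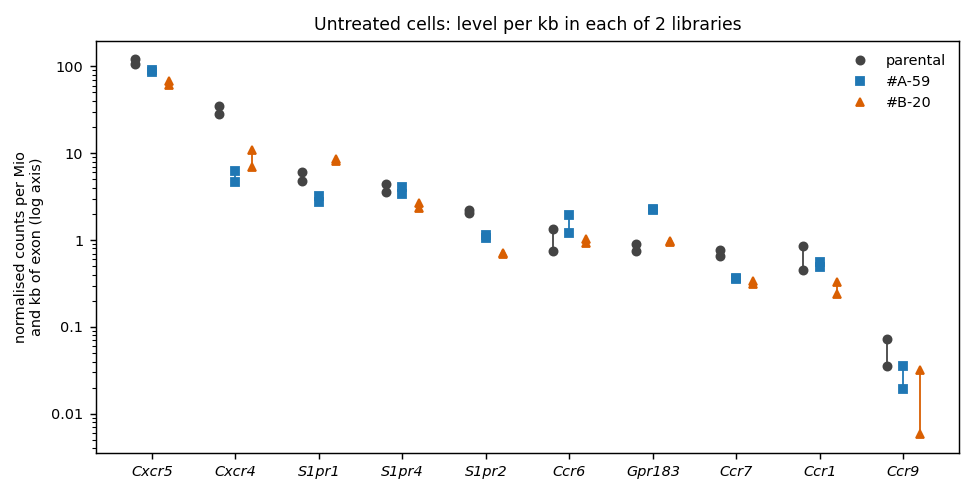
Level of each receptor gene in untreated cells, as CPM per kb of exon on a log axis, for the 2 libraries of parental cells (circles), #A-59 (squares) and #B-20 (triangles), with a line joining the 2 libraries of a group. Genes are ordered by their level in parental cells, from Cxcr5 (113) to Ccr9 (0.0535), and the clones lie clearly below parental cells for Cxcr4.

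TFEB binds the letters CACGTG as the core of its CLEAR element, so the upstream sequence of the receptor genes is shown before their levels. A table of RefSeq promoters (GRCm38.p6, 250 bases before to 50 after a start, 32851 windows of 300 bases) held windows for 7 of the 10 genes, and none was held for Cxcr5, Ccr7 and S1pr1. The letters CACGTG occurred in 7.15% of all windows and in none of those of the 7 genes. The related letters CATGTG, searched on both strands, occurred in 14.2% of all windows and, among the 7 genes, in that of S1pr4 alone, where their reverse complement CACATG stood at -234 and -183 from the start. The letters TATAAA, searched on both strands after the sequences had been seen, occurred in 13.6% of all windows and here in that of Cxcr4 alone, 30 bases before the start and overlapping with their own reverse complement. A match or its lack describes these letters in these windows only.
The 250 bases before the start are given 5′ to 3′ on the strand of the gene for Cxcr4 (chr1:128592300-128592549, minus strand), Ccr1 (chr9:123968693-123968942, minus strand) and Ccr9 (chr9:123766961-123767210, plus strand), genes with a window that were DEGs in both clones at the same time, and for S1pr4 (chr10:81500138-81500387, minus strand), with the letters found by the searches in capitals.
Cxcr4: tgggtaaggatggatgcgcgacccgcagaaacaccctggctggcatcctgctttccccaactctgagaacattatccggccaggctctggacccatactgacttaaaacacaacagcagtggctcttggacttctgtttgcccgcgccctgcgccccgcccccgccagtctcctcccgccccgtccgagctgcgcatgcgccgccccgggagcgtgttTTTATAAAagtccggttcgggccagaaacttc
Ccr1: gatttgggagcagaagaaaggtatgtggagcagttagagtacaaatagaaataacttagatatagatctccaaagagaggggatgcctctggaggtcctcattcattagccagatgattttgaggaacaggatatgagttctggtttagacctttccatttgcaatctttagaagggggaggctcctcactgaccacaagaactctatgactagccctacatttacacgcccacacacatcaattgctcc
Ccr9: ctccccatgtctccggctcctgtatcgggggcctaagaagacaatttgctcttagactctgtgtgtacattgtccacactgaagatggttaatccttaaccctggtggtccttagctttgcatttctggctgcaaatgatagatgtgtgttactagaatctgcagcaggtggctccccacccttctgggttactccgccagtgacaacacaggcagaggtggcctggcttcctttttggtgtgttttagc
S1pr4: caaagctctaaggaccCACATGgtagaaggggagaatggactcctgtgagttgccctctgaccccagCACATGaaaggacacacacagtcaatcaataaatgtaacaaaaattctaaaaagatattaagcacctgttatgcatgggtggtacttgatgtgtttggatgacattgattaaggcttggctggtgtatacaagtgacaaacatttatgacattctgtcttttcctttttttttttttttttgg

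**Figure D2:**
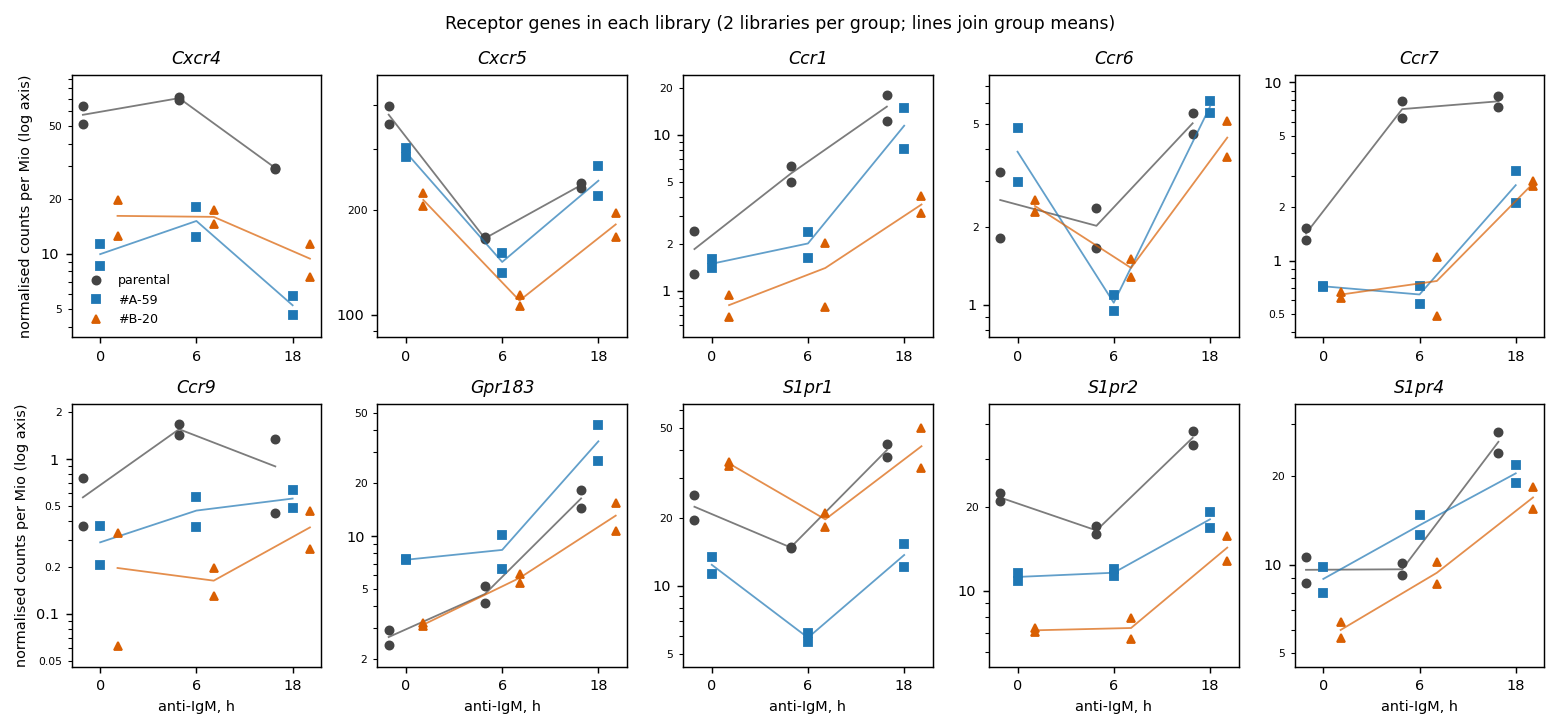
CPM of the 10 receptor genes in each of the 18 libraries on a log axis, against the time of BCR stimulation (0, 6 and 18 h, drawn with even spacing), for parental cells (circles), #A-59 (squares) and #B-20 (triangles). Lines join the means of 2 libraries. Cxcr4 lies below parental cells in all 12 clone libraries, Ccr7 stands far above the clones in the parental libraries at 6 h, and S1pr1 and Gpr183 separate the clones from each other.

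The first question was whether the clones differed from parental cells. A differentially expressed gene (DEG) had to reach an FDR below 0.01 together with a log2 fold change beyond 1 in either direction. P-values were computed by edgeR (quasi-likelihood F test) and adjusted after Benjamini-Hochberg over the 15318 genes. They reflect the spread between the 2 libraries of a group, pooled over the 9 groups, and not that of the groups compared alone. In #A-59 and #B-20 at 6 h, the 2 libraries stood further apart than in the other groups. The comparisons of the clones with parental cells at one time share the same parental libraries. In untreated cells, 1 receptor gene was lower and 1 higher in #A-59, beside 2.48% and 2.30% of all genes, and 2 were lower in #B-20 and none higher, beside 3.37% and 1.79%. After 6 h, 5 were lower in #A-59 and 5 in #B-20, beside 3.64% and 3.85% of all genes, and none was higher, beside 4.28% and 2.88%. After 18 h, 3 were lower and 1 higher in #A-59, beside 2.91% and 2.00%, and 4 were lower and none higher in #B-20, beside 4.30% and 1.91%. Cxcr4 was lower in all 6 comparisons, Ccr7 in 4, Ccr1 and S1pr2 in 3 each, and Ccr9 and S1pr1 in 2 each, whereas Gpr183 was higher in 2.

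For #A-59, the 10 genes had a median log2 fold change of -0.62 untreated, -1.16 after 6 h and -0.60 after 18 h, and for #B-20 of -0.97, -0.88 and -0.98, with medians over all genes between -0.022 and 0.010. Over all 19 comparisons made here, 48 of 190 values of the 10 genes were DEGs (25.3%), beside 4.16% of those of all genes. At an FDR below 0.05 and with no limit on the fold change, these shares were 46.3% (88 of 190) and 19.0%. Since the genes were chosen with earlier results of these data known, the shares describe them and are not a test. The 190 values are not independent either, as the 19 comparisons reuse the same genes and libraries.

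Cxcr4 (ENSMUSG00000045382, chr1:128588199-128592299, minus strand, GRCm38) encodes the receptor for CXCL12. In untreated parental cells its level was 63.9 and 51.0 CPM in the 2 libraries, against 11.3 and 8.59 in #A-59 and 19.7 and 12.5 in #B-20. After 6 h it was 72.2 and 69.4 CPM in parental cells, 18.0 and 12.3 in #A-59 and 17.4 and 14.5 in #B-20. After 18 h, 29.5 and 29.2 CPM were left in parental cells, 4.61 and 5.85 in #A-59 and 11.3 and 7.5 in #B-20. The highest of the 12 clone libraries thus lay below the lowest parental library of any time. Against parental cells, #A-59 had a log2 fold change of -2.52 ± 0.22 (SE) untreated, -2.21 ± 0.22 after 6 h and -2.49 ± 0.26 after 18 h, and the adjusted p by edgeR's quasi-likelihood test was at most 3.9e-06. In #B-20 it was -1.84 ± 0.22, -2.15 ± 0.22 and -1.64 ± 0.23, with an adjusted p of at most 7.51e-05. Untreated #A-59 cells held 17.5% and untreated #B-20 cells 28.0% of the parental level. The clones did not pass the test against each other at any time, with a difference (#B-20 minus #A-59) of 0.68 at 0 h, 0.06 at 6 h and 0.85 at 18 h, the last with a 95% interval from 0.28 to 1.43.

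Ccr7 (ENSMUSG00000037944, chr11:99144199-99155077, minus strand) encodes the receptor for CCL19 and CCL21. Its level was low in untreated cells, with 1.30 and 1.53 CPM in parental cells, 0.711 and 0.725 in #A-59 and 0.669 and 0.620 in #B-20. After 6 h it stood at 6.34 and 7.82 CPM in parental cells, yet at 0.568 and 0.725 in #A-59 and 0.492 and 1.05 in #B-20. After 18 h it was 7.31 and 8.35 CPM in parental cells, 2.10 and 3.20 in #A-59 and 2.81 and 2.61 in #B-20. At each time the clone libraries lay below the parental ones without overlap, and the distance was largest at 6 h. There the log2 fold change was -3.47 ± 0.31 in #A-59 (adjusted p = 2.37e-08, edgeR) and -3.25 ± 0.32 in #B-20 (adjusted p = 6.63e-08, edgeR), so that #A-59 held 9.0% and #B-20 10.5% of the parental level. At 18 h the log2 fold change was -1.58 ± 0.24 in #A-59 and -1.54 ± 0.22 in #B-20, both DEGs. In untreated cells it was -0.97 and -1.13, with adjusted p-values of 0.0422 and 0.0342 by edgeR. The clones did not differ detectably from each other, with a difference between -0.15 and 0.22 and a 95% interval at 18 h from -0.47 to 0.56. Of the exon bases of Ccr7, 133 (6.7%) overlap with Gm57398 on the opposite strand. Gm57398 is not in the count tables, and its reads there would be counted as Ccr7.

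Ccr1 (ENSMUSG00000025804, chr9:123962126-123968692, minus strand) encodes a receptor for CCL3 and CCL5 that is best known from myeloid cells. After 6 h it was at 6.29 and 4.95 CPM in parental cells, 2.39 and 1.63 in #A-59 and 2.02 and 0.784 in #B-20. After 18 h it was at 17.9 and 12.3 CPM in parental cells and 14.7 and 8.08 in #A-59, which overlapped, but at 4.02 and 3.13 in #B-20. It was a DEG in both clones at 6 h, with a log2 fold change of -1.44 ± 0.37 in #A-59 (adjusted p = 0.00567, edgeR) and -1.94 ± 0.42 in #B-20 (adjusted p = 0.00165, edgeR), and at 18 h in #B-20 with -2.06 ± 0.32 (adjusted p = 0.000157, edgeR). At 18 h the value in #A-59 was -0.39, with a 95% interval from -1.03 to 0.25. The call at 6 h in #A-59 was lost with a correction for GC content and without any one of its 4 libraries, where the adjusted p was at most 0.0569. That in #B-20 was lost without the parental 6 h replicate 1 and without the #B-20 6 h replicate 2, with an adjusted p of at most 0.0257. The 6 myeloid markers summed to 1.92 to 9.01 CPM in parental cells, 7.86 to 27.9 in #A-59 and 2.81 to 7.05 in #B-20. Of these, Lyz2 and Cd14 were at 0 in all #A-59 libraries and at most 0.0653 and 0.0519 CPM elsewhere, while Itgam, an integrin gene, reached 26.3 CPM in #A-59, against 8.38 in parental cells and 6.53 in #B-20, in each genotype at 18 h, and was a DEG, higher than in parental cells, in #A-59 at all times and in #B-20 at 0 and 6 h. Like Ccr1, Itgam rose by 18 h in parental cells (log2 fold change 2.61 ± 0.26) and #A-59 (1.70 ± 0.19). Csf1r was higher in #A-59 than in parental cells at 6 h, with 2.16 and 0.966 CPM against 0.306 and 0.327 (2.34 ± 0.56, adjusted p = 0.00171, edgeR), and rose there by 6 and 18 h, and Adgre1 rose in #A-59 by 6 h (1.51 ± 0.36). The part of these markers in the levels of Ccr1 was not tested.

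Ccr9 (ENSMUSG00000029530, chr9:123767211-123783457, plus strand), the receptor gene for CCL25, held between 1 and 41 counts per library and is the least certain of the 10. After 6 h parental cells held 33 and 41 counts (1.44 and 1.68 CPM), #A-59 15 and 6 counts (0.568 and 0.362 CPM) and #B-20 4 and 2 counts (0.197 and 0.131 CPM), with no overlap. The ratio of summed counts per library size to parental cells was 0.313 in #A-59 (95% exact interval for counting error only, 0.183 to 0.513) and 0.108 in #B-20 (0.0383 to 0.246). Both were DEGs at this time, with a log2 fold change of -1.68 ± 0.49 (adjusted p = 0.00936, edgeR) and -3.17 ± 0.74 (adjusted p = 0.000631, edgeR). The call in #A-59 was lost in both fits with DESeq2, with only the libraries compared, with the GC correction and in 12 of 18 fits with a library left out, with an adjusted p of up to 0.0661. At 0 and 18 h no difference passed the test, and at 18 h the clone libraries overlapped with the parental ones, which held 5 and 26 counts. In untreated cells the ratio was 0.530 (0.265 to 1.02) in #A-59 and 0.334 (0.114 to 0.814) in #B-20, and after 18 h it was 0.552 (0.298 to 0.999) in #A-59 and 0.358 (0.193 to 0.649) in #B-20. Exons of Ccr9 overlap with those of Slc6a20a (434 bases, opposite strand) and of the long noncoding RNA genes Gm17200 (592 bases, same strand) and Gm17021 (1932 bases, opposite strand), and unstranded reads cannot be assigned among them. The log2 fold changes of Slc6a20a at 0, 6 and 18 h were 4.05, 0.65 and 0.7 in #A-59 and 1.45, -1.11 and -1.31 in #B-20. Its level lay between 0.107 and 3.21 CPM. Gm17200 was lower in both clones at 6 h, with 13 and 20 counts in parental cells, 2 and 4 in #A-59 and 1 and 2 in #B-20. The part of these genes in the counts of Ccr9 was not tested.

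S1pr2 (ENSMUSG00000043895, chr9:20965952-20976793, minus strand) was lower in both clones at all times, but passed the fold limit in #B-20 only. Untreated parental cells held 21.0 and 22.5 CPM, #A-59 10.8 and 11.6 and #B-20 7.30 and 7.07. After 6 h these levels were 16 and 17.1, 12 and 11.3, and 7.97 and 6.66 CPM, and after 18 h 33.6 and 37.8, 19.2 and 16.9, and 15.8 and 12.8 CPM, in the same order. The groups did not overlap at any time, and #B-20 was the lowest at each. The log2 fold change in #B-20 was -1.60 ± 0.14 at 0 h (adjusted p = 8.75e-08, edgeR), -1.17 ± 0.14 at 6 h and -1.32 ± 0.12 at 18 h. In #A-59 it was -0.96 ± 0.13 (adjusted p = 2.03e-05, edgeR), -0.50 ± 0.13 and -0.99 ± 0.13, each within the fold limit. The direct difference between the clones came to -0.64 untreated, -0.67 after 6 h and -0.34 after 18 h, also within the limit. Mrpl4, whose exons share 122 bases with S1pr2 on the opposite strand, had log2 fold changes between -0.49 and -0.07.

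S1pr1 (ENSMUSG00000045092, chr3:115710433-115715055, minus strand) separated the clones. Untreated parental cells held 19.6 and 25.2 CPM, #A-59 11.3 and 13.4 and #B-20 35.5 and 34.0. After 6 h the levels were 14.9 and 14.7 in parental cells, 5.64 and 6.16 in #A-59 and 21.1 and 18.3 in #B-20, and after 18 h 42.5 and 37.3, 15.4 and 12.1, and 49.9 and 33.1 CPM. #A-59 was thus below parental cells at each time, whereas #B-20 was above them at 0 and 6 h and overlapped with them at 18 h. Against parental cells, #A-59 had a log2 fold change of -0.87 ± 0.18 untreated, -1.33 ± 0.20 after 6 h (adjusted p = 4.05e-05, edgeR) and -1.53 ± 0.18 after 18 h (adjusted p = 5.31e-06, edgeR), the last 2 DEGs. In #B-20 it was 0.63 (95% interval 0.28 to 0.99), 0.42 (0.04 to 0.79) and 0.06 (-0.29 to 0.41), none a DEG. Exons of S1pr1 share 50 bases with Gm9889 on the opposite strand, which reached 0.363 CPM at most.

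Gpr183 (ENSMUSG00000051212, chr14:121952331-121965193, minus strand), the receptor gene for 7α,25-dihydroxycholesterol, was the one member that was a DEG in the direction of a higher level in a clone. Untreated parental cells held 2.42 and 2.94 CPM, #A-59 7.42 and 7.30 and #B-20 3.08 and 3.22. After 6 h the levels were 4.19 and 5.20 in parental cells, 10.2 and 6.52 in #A-59 and 5.46 and 6.14 in #B-20, and after 18 h 18.4 and 14.4, 42.6 and 26.7, and 15.4 and 10.7 CPM. #A-59 stood above parental cells at all times without overlap. Its log2 fold change was 1.46 ± 0.27 at 0 h (adjusted p = 0.000855, edgeR), 0.86 ± 0.26 at 6 h (adjusted p = 0.0148, edgeR) and 1.09 ± 0.22 at 18 h (adjusted p = 0.00199, edgeR), DEGs at 0 and 18 h. The call at 0 h was lost without the parental or the #A-59 replicate 1 of that time, with an adjusted p of up to 0.0241 by edgeR. That at 18 h was lost in a fit of only the libraries compared, and without the #A-59 18 h replicate 1 or the parental 18 h replicate 2, with a log2 fold change down to 0.72 and an adjusted p of up to 0.0926. In #B-20 it was 0.24 (-0.43 to 0.91), 0.30 (-0.27 to 0.87) and -0.31 (-0.79 to 0.17).

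Cxcr5, Ccr6 and S1pr4 were DEGs in no comparison of a clone with parental cells. Cxcr5 (ENSMUSG00000047880, chr9:44511787-44526444, minus strand), the follicle receptor, held 354 and 399 CPM in untreated parental cells, 302 and 284 in #A-59 and 205 and 224 in #B-20. Its log2 fold change in #B-20 was -0.81 at 0 h (95% interval -1.03 to -0.59, adjusted p = 1.43e-05, edgeR), -0.59 at 6 h and -0.37 at 18 h, and in #A-59 between -0.36 and 0.05. Bcl9l, whose exons share 118 bases with Cxcr5 on the opposite strand, had log2 fold changes between -0.25 and 0.19. S1pr4 (ENSMUSG00000044199, chr10:81497745-81500137, minus strand), a sphingosine-1-phosphate receptor gene of blood cells, held 8.64 and 10.6 CPM in untreated parental cells, 9.85 and 8.03 in #A-59 and 5.62 and 6.39 in #B-20, and its log2 fold changes lay between -0.67 and 0.51. Ccr6 (ENSMUSG00000040899, chr17:8236041-8258519, plus strand), the receptor gene for CCL20, had log2 fold changes between -1.0 and 0.60, the lowest in #A-59 at 6 h (95% interval -1.75 to -0.26, adjusted p = 0.0335, edgeR). Of its exon bases, 1145 (46.7%) overlap with Gm33799 on the opposite strand, a gene not in the count tables, whose reads would be counted as Ccr6.

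**Figure D3:**
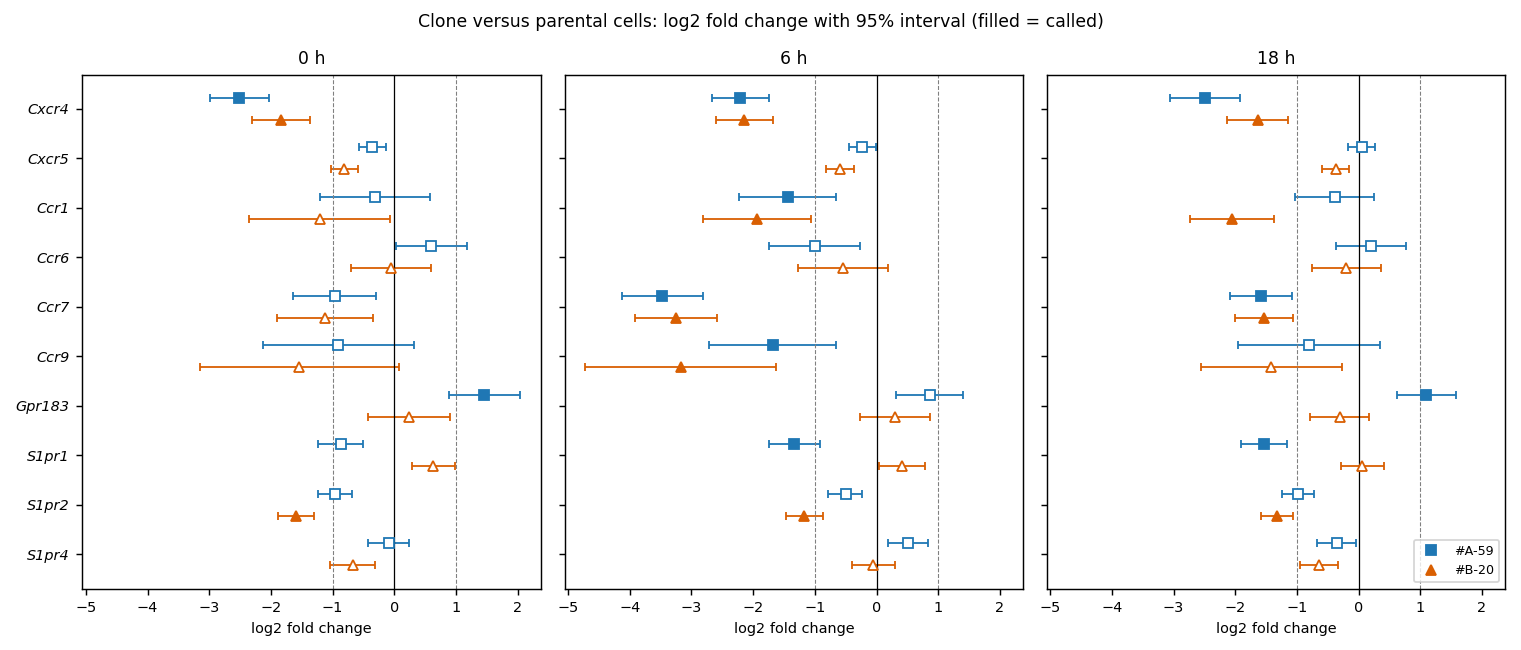
Log2 fold change of each clone against parental cells at 0, 6 and 18 h, with 95% intervals from the edgeR fit, for #A-59 (squares) and #B-20 (triangles); filled symbols are DEGs and dashed lines mark the fold limit. Both clones lie left of the limit for Cxcr4 at all times and for Ccr7 at 6 and 18 h, and for S1pr1 #A-59 lies left and #B-20 right of 0.

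The second question was how BCR stimulation moved the receptor genes in each genotype. After 6 h, 2 rose and 1 fell in parental cells, beside 1.17% and 1.46% of all genes, none rose and 3 fell in #A-59, beside 0.594% and 0.796%, and none was a DEG in #B-20, where 0.196% of all genes rose and 0.189% fell. In #B-20 at 6 h, the fits with DESeq2 found no DEG among the 10 either. Without the #B-20 replicate 1 of 0 h or of 6 h, Cxcr5 was called there, with a log2 fold change of -1.04. The 2 libraries of #B-20 at 6 h and those of #A-59 at 6 h stood further apart than those of any other group, with a chi-square per degree of freedom over all genes of 58.3 and 33.3, against 3.59 in parental cells at 6 h and at most 16.9 in the other groups. The part of this spread in the counts of DEGs at 6 h was not tested. After 18 h, 5 rose in parental cells and 4 in each of #A-59 and #B-20, beside 5.56%, 4.17% and 2.93% of all genes, and none fell, beside 4.75%, 4.59% and 1.87%. The responses at 6 and 18 h share the untreated libraries of their genotype.

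After 18 h, Ccr1, Ccr7, Gpr183 and S1pr4 rose in all 3 genotypes. Ccr1 rose from 2.42 and 1.28 to 17.9 and 12.3 CPM in parental cells (log2 fold change 2.99 ± 0.36, adjusted p = 3.27e-06, edgeR), from 1.59 and 1.40 to 14.7 and 8.08 CPM in #A-59 (2.92 ± 0.38) and from 0.937 and 0.682 to 4.02 and 3.13 CPM in #B-20 (2.14 ± 0.52, adjusted p = 0.00212, edgeR). Gpr183 rose by 2.60 ± 0.27 on the log2 scale in parental cells, by 2.24 ± 0.23 in #A-59 and by 2.05 ± 0.28 in #B-20, from the different starting levels given above. S1pr4 rose to 24.0 and 28.2 CPM in parental cells, 21.8 and 18.9 in #A-59 and 18.3 and 15.4 in #B-20, a log2 fold change of 1.45 ± 0.15, 1.18 ± 0.16 and 1.49 ± 0.17. Ccr7 rose by 2.47 ± 0.25, 1.86 ± 0.31 and 2.06 ± 0.36, so that at 18 h its increase passed the test in the clones too. The call of Ccr1 in #B-20 was lost without either untreated #B-20 library and without the 18 h replicate 1, with an adjusted p of up to 0.0377. In parental cells, Ccr6 rose from 1.81 and 3.27 to 4.55 and 5.50 CPM (1.01 ± 0.28, adjusted p = 0.00672, edgeR), at the fold limit. This call was lost under 5 of 8 other settings and in 13 of 18 fits with a library left out, with log2 fold changes from 0.60 to 1.45 and an adjusted p of up to 0.151.

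After 6 h, Ccr7 rose in parental cells by 2.32 ± 0.24 on the log2 scale (adjusted p = 2.08e-06, edgeR), a 5.0-fold increase. Ccr1 rose there by 1.58 ± 0.36 (adjusted p = 0.00668, edgeR), a call that was lost with the GC correction and in 9 of 18 fits with a library left out, with an adjusted p of up to 0.116. Cxcr5 fell from 354 and 399 to 165 and 167 CPM in parental cells (-1.18 ± 0.10, adjusted p = 3.5e-07, edgeR) and from 302 and 284 to 151 and 132 CPM in #A-59 (-1.05 ± 0.10). In #B-20 it went from 205 and 224 to 114 and 106 CPM, with a log2 fold change of -0.97 ± 0.11 (adjusted p = 3.48e-05, edgeR), just within the fold limit. By 18 h, Cxcr5 stood at 240 and 232 CPM in parental cells, 267 and 219 in #A-59 and 196 and 168 in #B-20. Ccr6 fell in #A-59 from 2.98 and 4.82 to 0.947 and 1.09 CPM (-1.92 ± 0.34, adjusted p = 0.000714, edgeR), and S1pr1 fell there by 1.07 on the log2 scale (SE 0.20, adjusted p = 0.00178, edgeR). All 3 calls of #A-59 at 6 h were lost in a fit of only its 4 libraries, and those of Ccr6 and S1pr1 also without the 6 h replicate 1 or the 0 h replicate 2. The call of S1pr1 was lost with DESeq2 and betaPrior too. Cxcr5 lost its call without the 6 h replicate 2.

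Cxcr4 and S1pr2 passed the fold limit in no response. Cxcr4 had log2 fold changes of -0.97, -0.95 and -0.77 at 18 h in parental cells, #A-59 and #B-20 (adjusted p = 0.0017, 0.00957 and 0.0203, edgeR), and S1pr2 of 0.72, 0.70 and 0.99. The responses of Ccr9 lay between -0.20 and 1.43, the highest in parental cells at 6 h, where 74 counts in all stood against 30 at 0 h (ratio 2.70, counting interval 1.75 to 4.28; adjusted p = 0.037, edgeR).

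**Figure D4:**
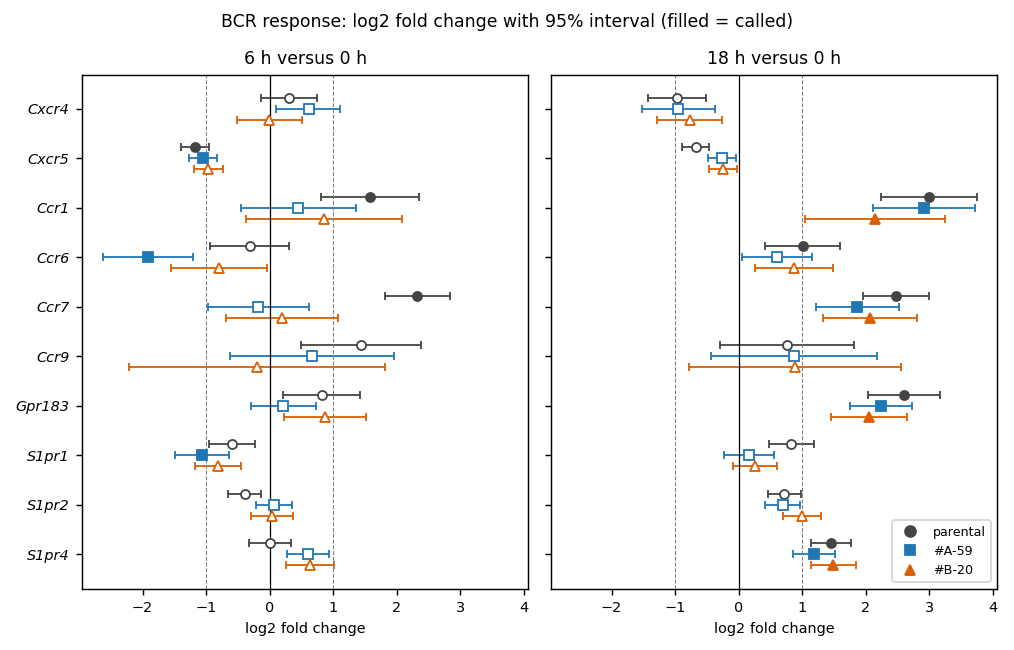
Log2 fold change after 6 and 18 h of BCR stimulation against untreated cells of the same genotype, with 95% intervals, for parental cells (circles), #A-59 (squares) and #B-20 (triangles); filled symbols are DEGs and dashed lines mark the fold limit. At 6 h Ccr7 is far right in parental cells and near 0 in both clones, and at 18 h all 3 genotypes lie right of the limit for Ccr1, Ccr7, Gpr183 and S1pr4.

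Whether a clone responded otherwise than parental cells was tested as an interaction. Of the 10 receptor genes, 1 passed in #A-59 at 6 h, beside 0.339% of all genes. None passed in #A-59 at 18 h (0.0326%), in #B-20 at 6 h (0.131%) or in #B-20 at 18 h (0.163%). A missing call does not show that the responses were alike. The fit with DESeq2 and a prior on the fold changes called Ccr7 in #B-20 at 6 h. In #A-59, the response of Ccr7 at 6 h was lower than the parental one by 2.5 ± 0.45 (log2, 95% interval -3.44 to -1.56, adjusted p = 0.00536, edgeR). The response itself was -0.18 in #A-59 (-0.97 to 0.61) against 2.32 in parental cells. The interaction lost its call in a fit of only the 8 libraries compared and in 7 of 18 fits with a library left out, with a log2 value from -2.66 to -2.15 and an adjusted p of up to 0.0338. In #B-20 it was -2.13 ± 0.49 (-3.15 to -1.10), with an adjusted p of 0.0694 by edgeR, and the response itself 0.19 (-0.69 to 1.08). At 18 h, the interaction of Ccr7 was -0.61 (-1.45 to 0.23) in #A-59 and -0.41 (-1.32 to 0.50) in #B-20. The interaction of Ccr6 in #A-59 at 6 h was -1.61 (-2.56 to -0.66, adjusted p = 0.0771, edgeR), and those of Cxcr4 lay between -0.31 and 0.31.

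The clones were compared directly as well. Beside 3.85%, 5.82% and 4.82% of all genes, 2, 1 and 3 of the 10 receptor genes were DEGs between #B-20 and #A-59 at 0, 6 and 18 h. S1pr1 was higher in #B-20 at all times, by 1.5 ± 0.18, 1.75 ± 0.20 and 1.59 ± 0.18 on the log2 scale, with an adjusted p of at most 8.29e-06 by edgeR. Gpr183 was lower in #B-20 by a log2 difference of -1.22 ± 0.29 at 0 h and -1.41 ± 0.22 at 18 h, and Ccr1 by -1.67 ± 0.32 at 18 h. The call of Gpr183 at 0 h was lost with the GC correction and without any one of its 4 libraries (adjusted p up to 0.071, edgeR), and that at 18 h in a fit of only the libraries compared. That of Ccr1 was lost without the #A-59 18 h replicate 1 or the #B-20 18 h replicate 2.

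The wider network of these receptors was read from 8 lists with 99 genes, of which 66 were tested, and 8 genes were higher, or lower, as DEGs in both clones at one time, beside 4.59% of all genes. Among the other chemokine receptor genes, Cxcr6 and Xcr1 were tested and were DEGs against parental cells in neither clone. The ligand genes Cxcl12, Cxcl13 and Ccl20 held at most 2 counts in any library and Ccl19 and Ccl21a held 0. Of the 2 ligand genes named for Ccr1, Ccl3 held 0 counts and Ccl5 at most 4. Ligand genes of Cxcr4, Cxcr5, Ccr6, Ccr7 and Ccr1 were thus barely or not detected in these counts. Ccl25, the ligand gene of Ccr9, was tested and lay between 6.51 and 12.9 CPM. The oxysterol enzyme genes Ch25h, Cyp7b1 and Hsd3b7 were listed at 0 counts in every library. Other genes of the tables overlap 50.3% of the exon bases of Ch25h and up to 67.7% of those of Hsd3b7. Reads there may not have been assigned, so that the zeros of Hsd3b7 do not show a lack of transcript. Those of Ch25h speak only for its exon bases outside the overlap, where no read was counted. Exons of Cyp7b1 overlap with no other gene of the tables, and Cyp7b1 was not detected at this depth.

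Of the 3 ligand genes tested, Ccl22, whose product attracts T cells through CCR4, was lower in both clones at 6 h, with 2240 and 1950 CPM in parental cells, 559 and 478 in #A-59 and 770 and 616 in #B-20 (log2 fold change -2.02 ± 0.19 and -1.60 ± 0.19). Ackr4, the gene of an atypical receptor that removes CCL19, CCL21 and CCL25, was higher in both clones at all times, by 1.52, 2.21 and 1.84 on the log2 scale in #A-59 and 2.27, 3.11 and 2.53 in #B-20. It shares 1663 exon bases with Acad11 on the opposite strand, and its level reached 3.88 CPM at most. Parental cells held only 4 and 11 counts of Ackr4 at 6 h. Ackr3, the atypical receptor gene for CXCL12, lay between 36.2 and 121 CPM and was a DEG against parental cells in neither clone.

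Among the 8 other lipid and positioning receptor genes tested, Gpr18 was higher in both clones at 0 and 6 h, with 6.38 and 6.38 CPM in parental cells after 6 h, 49.7 and 42.6 in #A-59 and 31.9 and 35.0 in #B-20 (2.86 ± 0.14 and 2.39 ± 0.14). Gpr174, a receptor gene for lysophosphatidylserine, was lower in both at 6 h, with 65 and 39 counts in parental cells, 18 and 5 in #A-59 and 17 and 11 in #B-20 (-2.06 ± 0.40 and -1.49 ± 0.38). S1pr3 had log2 fold changes of -1.24 at 6 h and -1.34 at 18 h in #A-59, both DEGs, and of -0.81 and -0.87 in #B-20, within the fold limit, and the clones did not pass the test against each other. Of 8 tested enzyme and transporter genes, Spns2, an exporter of sphingosine-1-phosphate, was higher in both clones at 6 h (2.14 ± 0.46 and 2.74 ± 0.45). This rests on few counts, with 4 and 4 in parental cells, 22 and 11 in #A-59 and 20 and 21 in #B-20.

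Of 13 tested genes for receptor desensitisation, Rgs2 and Rgs18, of the family that shortens G protein signals, and Grk3, a kinase of activated receptors, were DEGs in both clones. Rgs2 was higher at all times, with 3.07 and 2.28 CPM in untreated parental cells, 21.2 and 22.3 in #A-59 and 12 and 12.2 in #B-20 (3.01 ± 0.21 and 2.17 ± 0.21). Rgs18 was higher at 6 h (2.08 ± 0.59 and 3.73 ± 0.56), on few counts. Parental cells then held 6 and 2 counts of Rgs18, #A-59 14 and 17 and #B-20 48 and 35. Grk3 was lower at 6 h (-1.01 ± 0.14 and -2.17 ± 0.15). Its level was 39.7 and 47.4 CPM in parental cells, 23.1 and 19.9 in #A-59 and 10.6 and 8.62 in #B-20. Other Rgs genes were lower as DEGs in 1 clone. Rgs3 had log2 fold changes of -1.02, -1.17 and -1.07 in #B-20 at 0, 6 and 18 h. Rgs10 had -1.23 ± 0.21 in #A-59 at 6 h. None of the 17 tested genes of G proteins and their effectors was a DEG in both clones. In 1 clone, Gng2 was higher in #A-59 at 6 and 18 h and Elmo1 in #B-20 at 18 h. Of 12 transcription factor genes, all tested, 1 was a DEG against parental cells in each clone, namely Irf4 in #A-59 at 6 h (-1.10 ± 0.11) and Klf2, known as an activator of S1pr1, in #B-20 at 0 h (-1.08 ± 0.16). At that time and in that clone, S1pr1 had a log2 fold change of 0.63 (adjusted p = 0.0136, edgeR) and was not a DEG. The part of Klf2 in the levels of S1pr1 was not tested.

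**Figure D5:**
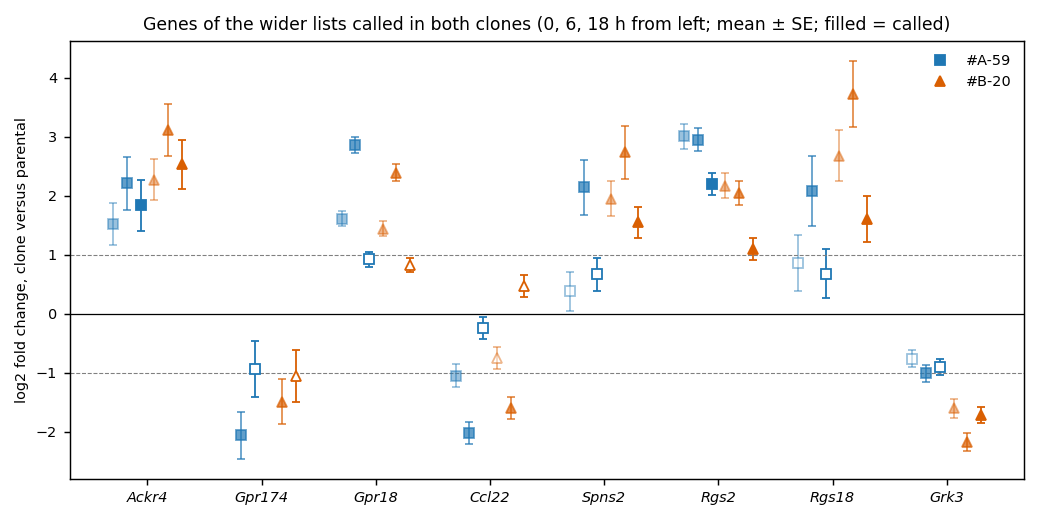
Log2 fold change (± SE) against parental cells of the 8 genes of the wider lists that were DEGs in both clones, for #A-59 (squares) and #B-20 (triangles) at 0, 6 and 18 h from left to right, with filled symbols for DEGs. Ackr4, Gpr18, Spns2, Rgs2 and Rgs18 lie above 0 and Gpr174 and Grk3 below; Ccl22 lies below 0 but for #B-20 at 18 h. Values with at most 3 counts in both libraries of a group (Gpr174 at 0 h) are not drawn.

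Neighbours on the chromosome were read within 100 kb of the receptor genes that were DEGs in both clones at the same time. Neither the 1 tested neighbour of Cxcr4 nor the 3 of Ccr1 were DEGs at those times. Of the 2 tested neighbours of Ccr7, Krt222 was a DEG in #A-59, with a log2 fold change of -1.53 at 6 h and -1.38 at 18 h, against 0.54 and 0.40 in #B-20. Of the 9 tested neighbours of Ccr9, Lztfl1, the gene of a protein of ciliary transport, was lower in both clones at 6 h, with 91.8 and 98.1 CPM in parental cells, 11.1 and 16.3 in #A-59 and 14.1 and 12.7 in #B-20 (-2.82 ± 0.16 in each, adjusted p at most 2.79e-10, edgeR). The overlapping Gm17200 was a DEG there too, on 13 and 20 counts in parental cells, 2 and 4 in #A-59 and 1 and 2 in #B-20. Lztfl1 and Gm17200 share 557 exon bases on opposite strands. Untreated, Lztfl1 was at 26.9 and 23.8 CPM in parental cells, 11.4 and 15.6 in #A-59 and 14.8 and 15.7 in #B-20. By 18 h it was at 118 and 116, 18.1 and 20.7, and 11.9 and 14.8 CPM, in the same order.

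Over the means of the 9 groups, the receptor genes did not share one pattern. The log2 levels of Ccr1 correlated with those of Ccr7 and S1pr4 (Pearson's r = 0.87 each), and those of Cxcr4 with Gpr183 at r = -0.64, while S1pr1 correlated with no other member beyond 0.50. Over the same 9 points, the gene most like Cxcr4 among all tested was Maged1 (r = 0.990), followed by Clstn1 (0.982) and Prr22 (0.980). For Ccr7 these were Msn (0.972), Cenpa (0.952) and Zfp870 (0.951), for Ccr1 Lgals8 (0.988), Crot (0.982) and Man1c1 (0.977), and for Ccr9 Ephx1 (0.954), Pip4k2b (0.951) and Sema6b (0.947). For Gpr183 they were Primpol (0.991), Dyrk4 (0.981) and Rsrp1 (0.977), for S1pr1 Gpatch2 (0.976), Tmem131 (0.959) and Mir9-2hg (0.956), and for S1pr2 Slc25a23 (0.984), Nectin2 (0.981) and Akap12 (0.981). With 9 points that share libraries, depth and treatment and 15318 genes to choose from, such values describe likeness only.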

How the data were processed

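RNA of WEHI-231 cells had been sequenced in 18 libraries, which were grouped by their labels. The authors deposited raw counts, 1 whole number for each Ensembl gene and library. Libraries were non-stranded, and reads were aligned to GRCm38 with STAR (2.5) and counted with featureCounts (1.5.0-p1), per the labels' processing notes. No entry lacked a gene (0).

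The analysis used edgeR 4.0.16 (R 4.3.3). After the filter filterByExpr, 15318 genes remained, which were scaled by TMM, fitted with one mean for each of 9 groups over the 18 libraries to pool the spread, and tested by the quasi-likelihood F test with Benjamini-Hochberg adjustment. DEGs had an FDR below 0.01 and a log2 fold change beyond 1 in either direction, as in the study's methods. Standard errors and 95% intervals are Wald-type. In data simulated on #A-59 against parental cells at 0 h, 192 of 200 genes changed by 2 on the log2 scale were recovered among 14802, with 1 false call. Genes with few counts were not changed there, and all groups were given the same spread per gene. The simulation therefore does not cover changes near the fold limit, genes with few counts or groups with a wider spread.

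Alternatives were DESeq2 1.42.0 without shrinkage and with betaPrior, DESeq2 size factors in edgeR, other filters, only the groups compared, a replicate block, a GC correction, each library left out, and other lengths. The canonical transcript was added after the data were seen.

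Symbols came from GENCODE vM39 (93.2% of genes matched, holding 99.6% of counts) and positions from RefSeq GRCm38.p6; exon lengths and overlaps are those of GENCODE vM39 (GRCm39). The members, lists and tests were chosen with earlier results of these data known. Named beside the 10 members were Tfeb, list genes called alike in both clones at one time, overlapping genes and called neighbours. Also named were the 3 genes most like each of the 7 members that were DEGs against parental cells (log2(CPM + 0.1) means). Single DEGs of a list (S1pr3, Gng2, Elmo1, Irf4, Klf2, Rgs3, Rgs10) and the myeloid markers given singly were chosen after their values were seen. Same-numbered libraries of 36 pairs of groups deviated together in part only (correlations -0.0742 to 0.594, over 0.1 in 23), so the number was not taken as a pairing. No pair of replicates agreed within counting noise (chi-square per degree of freedom 3.59 to 58.3, highest in #B-20 and #A-59 at 6 h). Intervals on counts cover counting error only. Some genes of the lists are not reported here.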

Additional observations from a re-analysis of the deposited data

Results flagged for a closer look

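The values given here differed between groups under the same contrast by a test of the difference itself, edgeR's quasi-likelihood test in each case. The response of Ccr7 to 6 h of BCR stimulation was lower in #A-59 than in parental cells (log2 difference -2.5, adjusted p = 0.00536). Between the clones, S1pr1 was higher in #B-20 than in #A-59, by 1.5 untreated, 1.75 after 6 h and 1.59 after 18 h on the log2 scale, with an adjusted p of at most 8.29e-06. Gpr183 was lower in #B-20, with a log2 difference of -1.22 untreated and -1.41 after 18 h (adjusted p = 0.00706 and 0.000134). Ccr1 was lower in #B-20 at 18 h, with -1.67 (adjusted p = 0.00103). Groups of 2 libraries were not searched for outlying libraries.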

How the results depend on the processing

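Of the 48 values of the 10 receptor genes that were DEGs, 33 remained DEGs under all 8 alternatives and with each of the 18 libraries left out, and none changed its direction. Among these 33 were all 6 values of Cxcr4 and all 4 of Ccr7 against parental cells, and the 3 of S1pr1 between the clones. Of 131 values that were DEGs under no setting, 36 changed sign under some.

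The number of receptor genes called in #A-59 against parental cells at 6 h was 3 with the GC correction in place of 5, and between the clones at 0 h it was 1 in place of 2. With only the libraries compared, 0 were called for the 6 h response of #A-59 and 0 for the interactions, #A-59 at 6 h included, where fewer degrees of freedom were left. The interactions held 2 with betaPrior, where that of #B-20 at 6 h came to 1, and 2 without a filter on low counts, where both were in #A-59 at 6 h. Over all comparisons, 88 values passed an FDR of 0.05 with no fold limit. In all, 22 values were DEGs against parental cells, 19 in the responses, 1 in the interactions and 6 between the clones; the same 48 values, neither more nor fewer, were called with the replicate block.

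With 1 library left out, 19 to 23 values were called against parental cells, 16 to 19 in the responses, 0 to 1 in the interactions and 5 to 6 between the clones. For #A-59 against parental cells these ranges were 1 to 3 at 0 h, 3 to 5 at 6 h and 3 to 5 at 18 h, and for #B-20 2 to 2, 4 to 5 and 4 to 4. For the responses they were 2 to 3 at 6 h and 4 to 6 at 18 h in parental cells, 1 to 3 and 4 to 4 in #A-59, and 0 to 1 and 3 to 5 in #B-20. For the interaction of #A-59 at 6 h it was 0 to 1, and between the clones 1 to 2 at 0 h, 1 to 1 at 6 h and 2 to 3 at 18 h. A lone library left in a group was assumed to vary like the other groups. Causes were not tested.

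Level per kb depends on the length used. With the longest or the canonical transcript, Cxcr5 came to 132 or 143 CPM per kb, S1pr2 to 2.89 or 3.40 and Ccr9 to 0.0983 or 0.109, and with the canonical one S1pr1 to 7.37 and Ccr6 to 1.61, with the order of the 10 genes unchanged under these 2 lengths. Depth limits Ccr9 (1 to 41 counts), for which ratios are given with counting intervals.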
